A study of Homo sapiens with 32 samples.

Results

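The 48 sites described here are transcription start sites at which the level rose late and not early in androgen-treated prostate cancer cells. They come from cap analysis of gene expression (CAGE), a method that traps capped RNAs and sequences their 5′ ends, each tag giving a place where transcription began. The members were chosen by their measured levels in the R1881 time course: of 19534 tag clusters, 48 had a mean level at 3 h below 1.5 times and at 12 h below 2 times that at 0 h, at 48 h and 72 h at least 4 times that at 0 h, and a 48 h mean of at least 10. Levels are tag counts scaled to a common library total (RPM), and 1 RPM was added before each ratio. The 48 sites make up 0.246% of the table. Another 243 clusters met all limits at 48 h and 72 h but lay beyond the limit at 3 h or 12 h, and are called the earlier-rising sites.

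The time course holds 14 libraries of LNCaP, an androgen-responsive human prostate cancer line, with 2 replicates at each of 0, 3, 6, 12, 18, 48 and 72 h of the synthetic androgen R1881. A second experiment holds 18 libraries, 9 of LNCaP and 9 of BicR prostate cancer cells, a name not spelled out in the labels. Each line was sampled before treatment and after 6 h and 24 h with ethanol (the vehicle), dihydrotestosterone (DHT) at 10 nM, bicalutamide at 1 µM, or DHT with bicalutamide, with 1 library per condition. In all groups the cells were kept in hormone-depleted serum before treatment. The sample labels give R1881 as 1 nM, while the treatment protocol gives 10 nM, so the dose is uncertain. With no vehicle-treated library later than 0 h in the time course, time in culture cannot be told apart from R1881. The labels do not say whether the replicates were separate cultures, so the spread between them may be technical.

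Androgens bind the androgen receptor, a nuclear receptor that binds DNA and changes transcription of nearby genes. R1881 and DHT activate the receptor, and bicalutamide is an antagonist of it. Responses to steroid hormones are commonly divided into early ones and ones that take many hours to appear. One gene often has several start sites, which can be used to different extents. The files name no genes and no annotation of their build, hg19, was used, so sites are given by position on hg19, counted from 1. For the same reason the cell lines were not checked against marker genes. Sites are numbered 1 to 48 by their mean RPM at 48 h.

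Depth differed widely in the time course. The libraries held 128463 to 3837493 tags in the table, and replicate 1 was always shallower than replicate 2. At 6 h and 18 h, replicate 1 was so shallow that 3 tags, the limit that a count of 0 allows, equal 17.1 and 19.4 RPM. These limits cover counting error only. The 6 h and 18 h libraries also correlated least with the others, with a median r of 0.675 and 0.757 at 6 h and of 0.606 and 0.808 at 18 h for replicates 1 and 2. The second experiment was deeper, with 4139807 to 7753336 tags per library, and 1 library, BicR with DHT and bicalutamide at 6 h, stood apart with a median r of 0.869 against at least 0.926 for the others.

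The median level of the 48 sites was 4.55 RPM at 0 h. It was 4.82 RPM after 3 h, 4.02 after 6 h and 6.17 after 12 h. By 18 h it was 10.2 RPM, by 48 h 29.5 and by 72 h 37.5. The values at 0, 3, 12, 48 and 72 h chose the sites and are given as a description. The earlier-rising sites had medians of 3.22 RPM at 0 h, 12.3 after 6 h, 24.1 after 18 h and 35.1 after 48 h, so the median levels of both sets lay close together at the end and apart in between. The median log2 ratio to 0 h was 0.07 at 6 h and 1.00 at 18 h for the 48 sites, against 1.20 and 2.24 for the earlier-rising sites, and 0 and -0.14 for all 19534 clusters. The 18 h mean was at least 2 times the 0 h mean at 24 of the 48 sites and at least 4 times at 6. The 6 h mean was at least 2 times the 0 h mean at 10 sites.

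**Figure D1:**
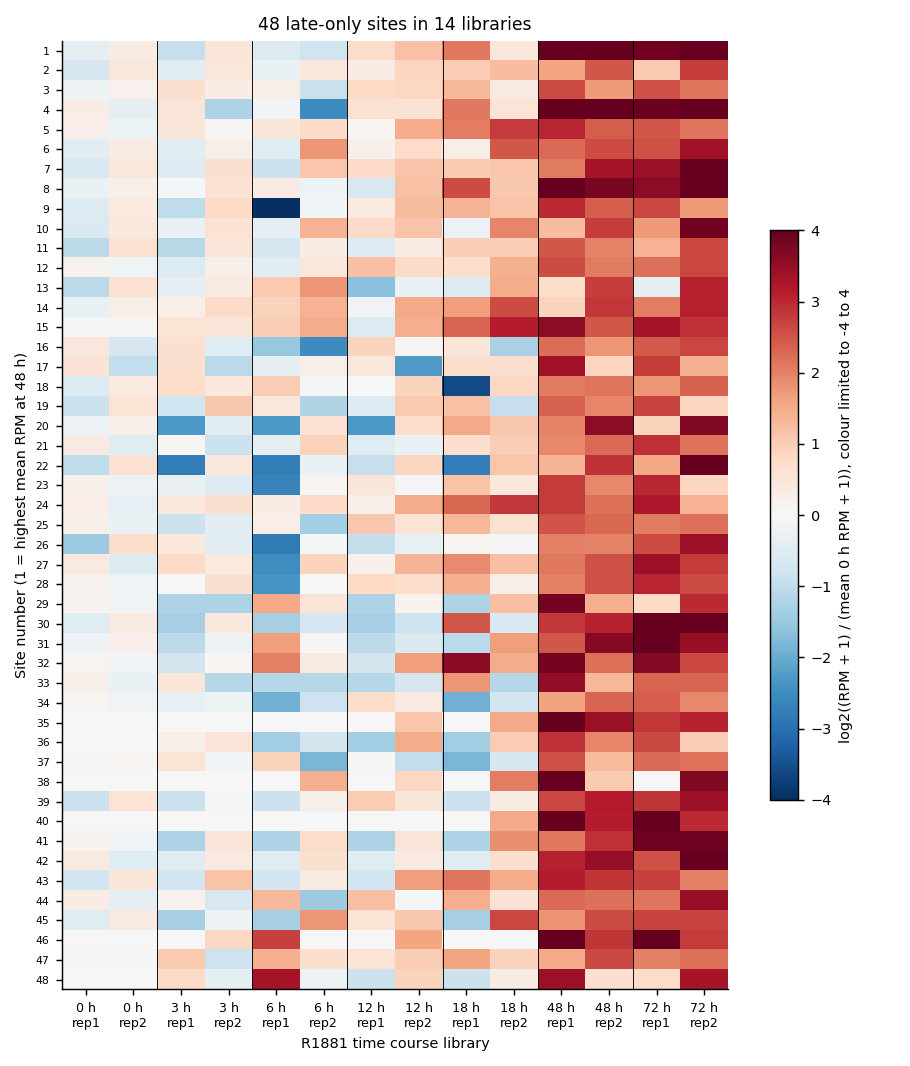
Each row is 1 of the 48 sites, ordered by mean RPM at 48 h, and each column is 1 of the 14 libraries; colour gives the log2 ratio of the library's RPM + 1 to the site's 0 h mean + 1, limited to -4 to 4. Red lies mostly in the 48 h and 72 h columns, while the shallow 6 h and 18 h replicate 1 columns hold scattered blue cells, where 19 and 16 sites had 0 tags.

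In the libraries that chose the sites, the late rise was shared by both replicates at most sites but its size was not. As the means of these libraries made the choice, this is a description with no test. The rule applied to replicate 2 alone kept 20 of the 48, and applied to replicate 1 alone 21. At 41 of the 48 sites, every library of 48 h and 72 h was above every library of 0, 3 and 12 h. At 18 sites each replicate on its own reached 4 times its 0 h level at both late times. From 48 h to 72 h the mean was higher at 29 sites, but both replicates were higher at only 13 and both were lower at 7. The sites therefore had no common direction between the last 2 times.

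The sites spanned a wide range of levels. At 48 h, 20 of the 48 lay below 20 RPM, 18 between 20 and 100 RPM, and 10 at or above 100 RPM, and site 1 alone held 77.2% of their summed level. Site 48, at chr9:140444894-140445001 on the plus strand, was nearest to the level limit, with 18.3 and 1.88 RPM in the replicates at 48 h. At this site 1 replicate carried most of the 48 h mean. The nearest cluster outside that limit, at chr3:10019540-10019611 on the minus strand, had a 48 h mean of 9.93 RPM. The limits on the ratios also had near neighbours. Site 12, at chr13:114145283-114145610 on the plus strand, had a 12 h ratio of 1.999, and the nearest cluster outside, at chr1:24125936-24126138 on the minus strand, one of 2.001. Site 18, at chr6:43596953-43597027 on the minus strand, had a 3 h ratio of 1.496, and the nearest outside, at chr5:72861171-72861267 on the minus strand, one of 1.5002. Site 26, at chr7:23286264-23286439 on the plus strand, had a 48 h ratio of 4.01, against 3.99 at chr19:35607148-35607258 on the plus strand. Site 36, at chr17:79056671-79056817 on the plus strand, had a 72 h ratio of 4.08, against 3.999 at chr22:43391154-43391334 on the minus strand. The set thus has no gap at its edges.

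The 48 sites lay on 19 chromosomes, with at most 5 on any, and 25 were on the plus and 23 on the minus strand. Their median width was 144 bp (range 24 to 894), close to the 139 bp of all clusters, while the earlier-rising sites had a median of 211 bp.

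Site 1, at chr19:18496833-18497279 on the plus strand, was the highest throughout. Its replicates had 617 and 964 RPM at 0 h, 421 and 1102 after 3 h, 542 and 457 at 6 h, 1318 and 1779 after 12 h, 3390 and 1094 at 18 h, 17842 and 13080 after 48 h, and 11523 and 34407 in the 72 h libraries. The late libraries lay far above all others, and the 72 h replicates differed from each other by more than the 48 h and 72 h means did. The log2 ratio to 0 h was 4.29 at 48 h and 4.86 at 72 h. Site 8, at chr19:18499067-18499960 on the same strand, began 2234 bp downstream of site 1. It had 7.12 and 10.5 RPM at 0 h, 8.34 and 13.6 after 3 h, 11.4 and 7.58 after 6 h, 5.32 and 20.8 after 12 h, 58.3 and 19.9 at 18 h, 185 and 134 after 48 h, and 117 and 303 in the 72 h libraries. As at site 1, replicate 1 was the higher at 18 h and 48 h, and replicate 2 at 72 h.

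Sites 2 and 3 were next in level and had the smallest 48 h ratios of the 8 highest. Site 2, at chr8:11660120-11660768 on the plus strand, had 154 and 340 RPM at 0 h, 186 and 339 after 3 h, 205 and 332 at 6 h, 308 and 453 after 12 h, 506 and 588 at 18 h, 746 and 1399 after 48 h, and 507 and 1670 in the 72 h libraries. Replicate 2 was above replicate 1 at every time, and within each replicate the 18 h library was above all earlier ones. Site 3, at chr21:27542900-27543172 on the minus strand, had 153 and 201 RPM at 0 h, 275 and 220 after 3 h, 211 and 94.5 at 6 h, 311 and 316 after 12 h, 447 and 226 at 18 h, 1087 and 576 after 48 h, and 1072 and 790 in the 72 h libraries. The 48 h and 72 h libraries were above all others, and the 18 h replicates lay on either side of those at 12 h.

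Site 4, at chr19:54371084-54371184 on the plus strand, had the largest 48 h ratio among the 48 sites, with a log2 of 4.47. Its replicates had 22.9 and 14.3 RPM at 0 h, 27.1 and 7.36 after 3 h, 17.1 and 2.33 at 6 h, 29.2 and 28.3 after 12 h, 84.3 and 27.9 at 18 h, 358 and 511 after 48 h, and 298 and 764 in the 72 h libraries. One of the 18 h libraries was thus at the 12 h level and the other well above it. Site 5, at chr1:70876824-70877034 on the plus strand, was near its late level by 18 h. It had 45.9 and 34.4 RPM at 0 h, 56.3 and 41.1 after 3 h, 57.0 and 68.8 at 6 h, 42.5 and 114 after 12 h, 169 and 286 at 18 h, 339 and 221 after 48 h, and 228 and 182 in the 72 h libraries, so that the 18 h values overlapped those at 48 h and 72 h.

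Site 6, at chr15:55700410-55700631 on the minus strand, had 23.7 and 40.2 RPM at 0 h, 22.9 and 38 after 3 h, 22.8 and 111 after 6 h, 37.2 and 54.2 after 12 h, 38.9 and 183 at 18 h, 159 and 199 after 48 h, and 196 and 339 in the 72 h libraries. Its replicates disagreed at 6 h and 18 h, where replicate 1 was near the 0 h level. Site 7, at chr8:6566078-6566410 on the plus strand, had 13.5 and 29.5 RPM at 0 h, 14.6 and 34.1 after 3 h, 11.4 and 47.8 after 6 h, 37.2 and 48.3 after 12 h, 45.4 and 47.8 at 18 h, 93.2 and 227 after 48 h, and 247 and 524 in the 72 h libraries. Both of its replicates were higher at 72 h than at 48 h.

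**Figure D2:**
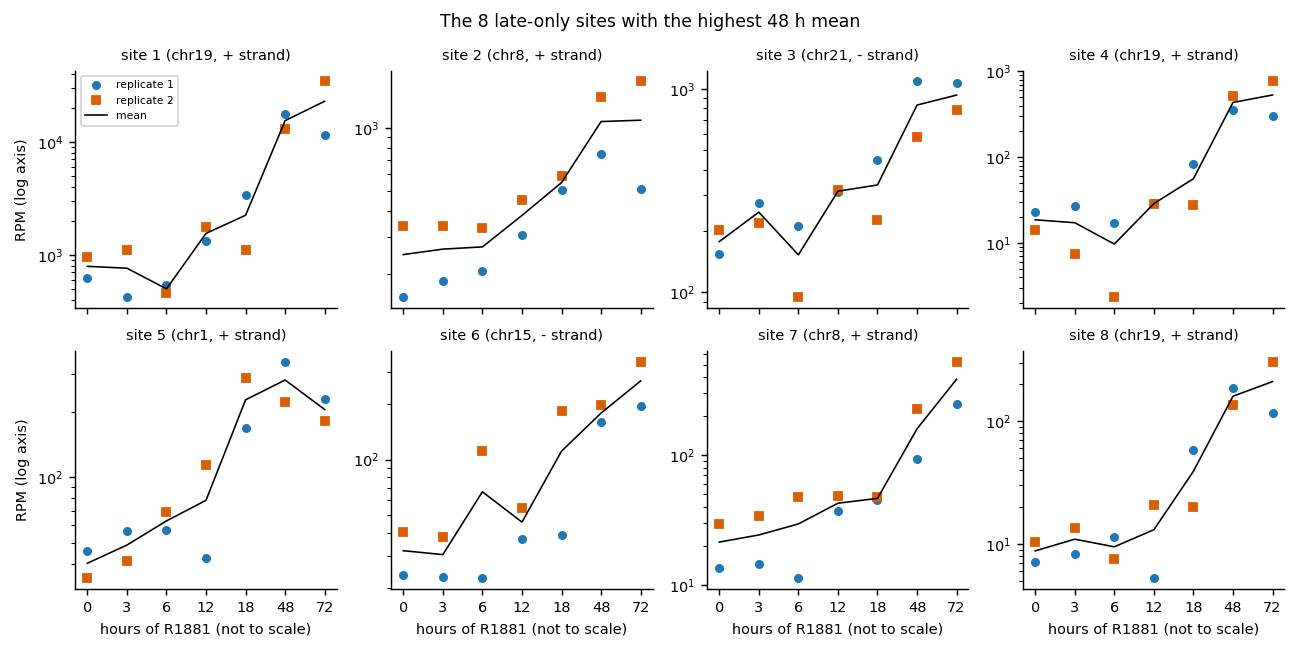
RPM (log axis, a different range in each panel) of the 8 sites with the highest 48 h mean, in replicate 1 (circles) and replicate 2 (squares), with lines through the means; times are evenly spaced and not to scale. Site 1 went from a 0 h mean of 791 RPM to 15461 at 48 h and 22965 at 72 h.

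At 4 sites (35, 38, 40 and 46) both 0 h libraries had 0 tags, and their ratios depend on the added 1 RPM. Site 40, at chr4:6695531-6695615 on the plus strand, had no tag in any library up to 12 h and 1.86 RPM in 1 library at 18 h, then 18.3 and 7.8 RPM at 48 h and 15.2 and 6.91 at 72 h. The 0 tags at 0 h allow levels of up to 2.37 and 0.826 RPM, the worth of 3 tags. Site 38, at chr6:34664601-34664675 on the minus strand, had 26.0 and 1.08 RPM at 48 h and 0 and 12.0 at 72 h, so that each late mean rested on 1 library.

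The 6 h and 18 h libraries had no part in choosing the sites, and the comparison of these times asks how the sites stood before the late times. In edgeR's quasi-likelihood test with a Benjamini-Hochberg adjusted p under 0.05, none of the 48 sites was called, and none of all 15999 clusters tested was (percent called 0). The smallest adjusted p among the 48 was 1, and DESeq2 called 0 clusters as well. At an unadjusted p under 0.05 there were 9 of 48 sites, against 2.94% of all clusters. The fitted log2 change from 6 h to 18 h was above 0 at 45 of the 48 sites with a median of 0.94, against 47.8% of all clusters with a median of -0.04, and 219 of 243 earlier-rising sites with a median of 1.16. In plain RPM means, 18 h was above 6 h at 41 of the 48 sites. The size of this shift depended on single libraries. The median was 0.19, with 28 sites above 0, without replicate 2 at 18 h, and 2.25 without replicate 2 at 6 h. It was 0.66 without replicate 1 at 6 h and 0.99 without replicate 1 at 18 h. All 48 sites passed the low-count filter over the 14 libraries, but on the 6 h and 18 h libraries alone (a setting chosen after seeing the data) only 21 did, of which 19 were above 0. At the other sites the fit rests on few tags at these times, so the counts of sites above 0 and of small unadjusted p are a description.

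The 9 sites at an unadjusted p under 0.05 all had higher fitted levels at 18 h. Site 5 had a log2 change of 1.84 (SE 0.52, n = 2 against 2, adjusted p = 1 in edgeR), and both of its 18 h libraries were above both at 6 h. Site 1 had a change of 2.18 (SE 0.66) and site 4 of 3.26 (SE 1.00). Site 24, at chr14:100841755-100841988 on the minus strand, had 5.70 and 8.17 RPM at 6 h and 25.9 and 37.3 at 18 h, a change of 2.07 (SE 0.74). Site 15, at chr22:43355782-43355925 on the minus strand, had 17.1 and 25.1 RPM at 6 h and 45.4 and 80.1 at 18 h, a change of 1.52 (SE 0.61). At these last 2 sites too the times did not overlap, at levels where replicate 1 is near or within a few tags of 0. The others were sites 3, 8 and 9 and site 25, at chr6:31938749-31938882 on the minus strand.

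**Figure D3:**
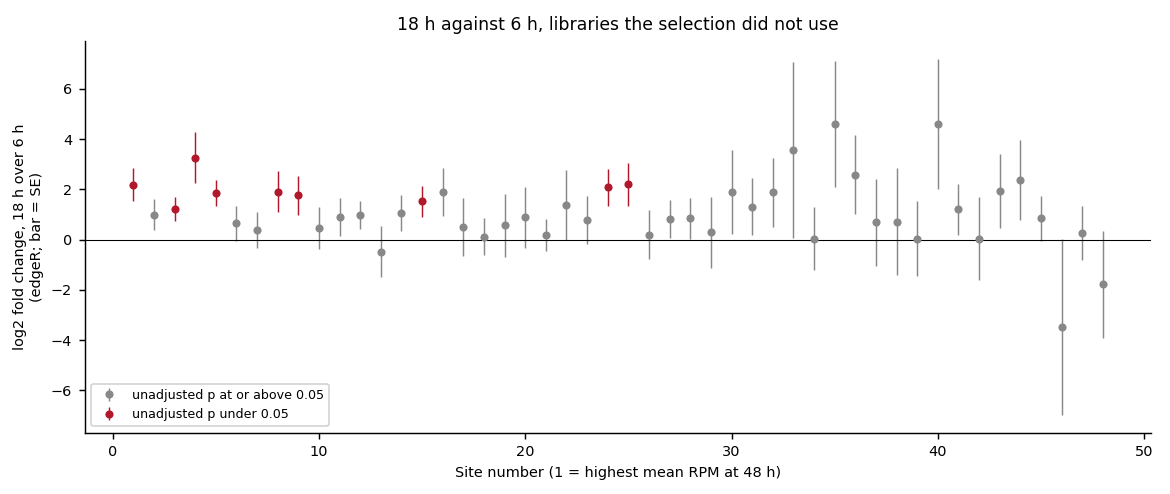
Points give the log2 fold change from 6 h to 18 h of R1881 for each of the 48 sites (edgeR, 14 libraries in the fit, n = 2 per time) and bars the SE; red points have an unadjusted p under 0.05. Of the points, 45 lie above 0 and none passed the adjusted threshold; the bars widen to the right, where the levels are lower.

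In the second experiment 18 of the 48 sites were found by a shared identifier (37.5%, against 43.8% of all clusters of the time course), as were 110 of the earlier-rising sites. All comparisons there use 1 library per condition. The treatment tests take 6 h and 24 h as stand-ins for replicates, with a term for time in each line, over 13294 sites. In them a response at only 1 of the times is averaged with the other, and its difference between the times counts as error. The 18 include sites 1 to 6.

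In LNCaP the 18 sites were on median near the vehicle level after 6 h of DHT and above it after 24 h. The log2 ratio of DHT to ethanol had a median of -0.07 at 6 h, with 6 of 18 sites above 0 and 0 at least doubled. At 24 h the median was 0.57, with 16 of 18 above 0 and 6 at least doubled. At 16 of the 18 sites the ratio was larger at 24 h than at 6 h. The earlier-rising sites had medians of 0.50 at 6 h, with 32 of 110 at least doubled, and 0.87 at 24 h, with 49 of 110 at least doubled. Their ratio was larger at 24 h at 69 of 110 sites. Over all sites the median was -0.05 at both times, and the ratio was larger at 24 h at 48.8%.

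None of the 18 sites passed the test of DHT against ethanol in LNCaP in edgeR, where 0.128% of all sites did. This test averages 6 h and 24 h, so it does not tell whether the sites responded at 24 h alone. An unadjusted p under 0.05 was seen at 1 of 18, against 5.54% of all sites, and DESeq2 called none of the 18. The median fitted log2 change was 0.41, with 17 of 18 above 0, and it was 0.04 with 11 above 0 when the DHT library of 24 h was left out, and 0.14 with 12 above 0 without the ethanol library of 24 h. The 110 earlier-rising sites had a median of 0.77, with 104 above 0 and 4 called. Another test asked whether the DHT effect in LNCaP differed between 24 h and 6 h. It took the libraries with DHT, with or without bicalutamide, against those with ethanol or bicalutamide alone. It called 0 of 18 sites and 0 of all sites (percent called 0). Its median was 0.40, with 13 of 18 above 0, against 0.01 for the earlier-rising sites, and 4 of 18 sites had an unadjusted p under 0.05 against 4.52% of all.

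Those 4 sites were low with DHT at 6 h and high at 24 h. Site 24 had 11.3 RPM with ethanol and 5.11 with DHT at 6 h, and 7.84 with ethanol and 46.1 with DHT at 24 h. Site 9, at chr12:57623795-57624007 on the plus strand, had 32.2 and 19.6 RPM at 6 h and 26.5 and 78.4 at 24 h, in the same order. Site 5 had 54.7 and 30.7 RPM at 6 h, and 37.7 and 129 at 24 h. Each was below its vehicle level at 6 h and above it at 24 h, as was site 15 with 16.6 and 11.9 RPM at 6 h and 12.9 and 35.9 at 24 h. The fitted difference between the times also takes in the libraries with bicalutamide. It was 2.64 (SE 0.60) at site 24 and 1.51 (SE 0.32) at site 9, with an adjusted p of 0.992 for both in edgeR. Site 1 had 613 RPM with ethanol and 657 with DHT at 6 h, and 526 and 1230 at 24 h. It was near its vehicle level at 6 h and above it at 24 h.

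In BicR the same sites were on median near or below the vehicle level at both times. The log2 ratio of DHT to ethanol had a median of -0.02 at 6 h and -0.20 at 24 h, with 9 and 6 of 18 sites above 0, and was larger at 24 h at 7 of 18. The earlier-rising sites had medians of 1.28 and 0.89. Over all sites the medians were 0.09 at 6 h and -0.04 at 24 h, with 60.8% and 43.2% above 0. In the test of DHT against ethanol, edgeR called 2 of 18 sites, both higher with DHT, where 2.21% of all sites were called higher. The earlier-rising sites had 58 of 110 called higher. The fitted median was -0.17 for the 18 sites, with 6 above 0 (-0.35 to -0.06 when an ethanol or DHT library was left out), and 1.32 for the earlier-rising sites, with 89 of 110 above 0.

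The 2 sites called in BicR were sites 2 and 3. Site 2 had 135 RPM with ethanol and 209 with DHT at 6 h, and 125 and 204 at 24 h. The DHT libraries were above both ethanol libraries, and the log2 change was 0.65 (SE 0.15, adjusted p = 0.0346). Site 3 had 220 and 306 RPM at 6 h and 251 and 402 at 24 h, a change of 0.55 (SE 0.14, adjusted p = 0.0491). At an unadjusted p under 0.05 there were 5 of 18 sites, against 15.5% of all. In LNCaP the same sites had nearly equal levels with both treatments, 154 and 160 RPM at 6 h and 151 and 158 at 24 h for site 2, and 279 and 302, then 316 and 336, for site 3. Neither BicR call held in every setting, and the count was 0 without a term for time, 0 without the ethanol or the DHT library of 24 h, 1 without the ethanol or the DHT library of 6 h, and 3 without the library that stood apart. The third site in that last setting was site 4, with 13.4 RPM with ethanol and 21.6 with DHT at 6 h, and 11.5 and 25.8 at 24 h. The DHT response differed between the lines at 0 of 18 sites in edgeR and at 0 of all sites (percent called 0), with 3 of 18 and 5.67% at an unadjusted p under 0.05. The median difference, BicR minus LNCaP, was -0.54, with 4 of 18 above 0, against 0.58 for the earlier-rising sites. It was -0.20 with 7 above 0 without the LNCaP DHT library of 24 h, and -0.26 with 7 above 0 without the LNCaP ethanol library of 24 h. The DHT effect at 24 h minus that at 6 h in BicR was again taken over libraries with and without bicalutamide. It had a median of -0.31 with 3 of 18 above 0. There edgeR called 0 of 18, where 0.301% of all sites were called, and 4 of 18 against 15.5% had an unadjusted p under 0.05. That median was -0.85 without either ethanol library, -0.03 with 8 above 0 without the bicalutamide library of 6 h, and -0.05 with 7 above 0 without that of 24 h. Its difference between the lines, BicR minus LNCaP, was added after seeing the data and had a median of -0.91 with 2 of 18 above 0, and of -1.25 to -0.50 when 1 library was left out. There edgeR called 0 of 18 sites against 0.00752% of all, with 5 of 18 against 10.4% at an unadjusted p under 0.05. The largest difference was at site 24, -4.20 (SE 0.79, adjusted p = 0.146), which was called when the BicR ethanol or DHT library of either time was left out.

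In BicR some of the shared sites were higher at 24 h than at 6 h with no DHT added (this comparison was chosen after seeing the data). That is, over the ethanol and bicalutamide libraries, 7 of 18 sites were higher at 24 h than at 6 h in BicR by edgeR's test, where 1.36% of all sites were called higher. The median log2 change was 0.95 with 15 of 18 above 0, against -0.16 for the earlier-rising sites, of which 15 of 110 were called higher and 6 lower, and 0.00 for all sites. It was 0.52 without the bicalutamide library of 6 h and 0.54 without that of 24 h. Of the 18 sites 12 had an unadjusted p under 0.05, against 20.7% of all. In LNCaP none of 18 was called, where 0.0602% of all sites were, with a median of 0.15 and 16 of 18 above 0, which was 0.04 with 9 above 0 without the bicalutamide library of either time. There 0 of 18 had an unadjusted p under 0.05, against 8.24% of all, and DESeq2 called none of the 18. Between the lines, this change differed at 0 of 18 sites in edgeR, where 0.0602% of all sites were called. In that comparison 7 of 18 had an unadjusted p under 0.05, against 5.68% of all, DESeq2 called site 24 alone, and the median was 0.66. The DHT comparisons above use the same ethanol and bicalutamide libraries, and the R1881 time course has no such series without androgen.

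Site 24 had 9.72 RPM in untreated BicR cells, 18.8 with ethanol and 7.88 with bicalutamide at 6 h, and 60.8 and 108 at 24 h. Both 24 h libraries were above all 3 others, and the log2 change was 2.43 (SE 0.36, adjusted p = 0.0198). Site 21, at chr17:26561008-26561099 on the minus strand, had 2.61 RPM untreated, 4.68 and 1.97 at 6 h, and 13.52 and 16.05 at 24 h, a change of 1.97 (SE 0.32, adjusted p = 0.024). Site 5 had 20.5 RPM untreated, 58.7 and 20.4 at 6 h, and 130 and 190 at 24 h, a change of 1.90 (SE 0.41, adjusted p = 0.0369). At all 3 the bicalutamide library of 6 h was the lower of its pair and the bicalutamide library of 24 h the higher. The other 4 called sites were sites 1, 9 and 15 and site 10, at chr7:112090440-112090699 on the plus strand, with log2 changes of 1.27 to 1.44. At site 1 the levels were 310 and 204 RPM at 6 h and 654 and 837 at 24 h.

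The bicalutamide libraries carried much of these calls. The plain log2 ratio of 24 h to 6 h in BicR had a median of 0.63 with ethanol, 16 of 18 sites above 0 and 6 at least doubled, and of 1.60 with bicalutamide, 16 above 0 and 10 at least doubled. Over all sites these medians were 0.15 and 0.27. Of all sites 73.5% and 75.3% were above 0, and 0.61% and 4.75% at least doubled. The edgeR call count was 0, for the 18 sites and for all sites, without the bicalutamide library of either time, 7 without either ethanol library, and 10 (9 higher and 1 lower) without the library that stood apart; DESeq2 called 5. The calls over all sites moved as well, from 396 to 657 and 664 without the ethanol library of 6 h and of 24 h, to 710 without the library that stood apart and to 181 in DESeq2. Of the implied total of each library, the table held 78.6% of the tags in BicR with ethanol and 75.6% with bicalutamide at 6 h, the lowest of the 18 libraries, and 84.6% and 85.7% at 24 h. The part of this share in the result was not tested.

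Of the 7 sites called there, 5 were at least doubled by DHT over ethanol at 24 h in LNCaP, with a median log2 ratio of 1.41 (range 0.71 to 2.42), and of the other 11 sites 1 was, with a median of 0.26. In the R1881 time course the median log2 ratio to 0 h at 18 h was 1.5 for these 7 sites and 0.92 for the other 11. The 7 sites were grouped by their values in BicR, and these are descriptions with no test.

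**Figure D4:**
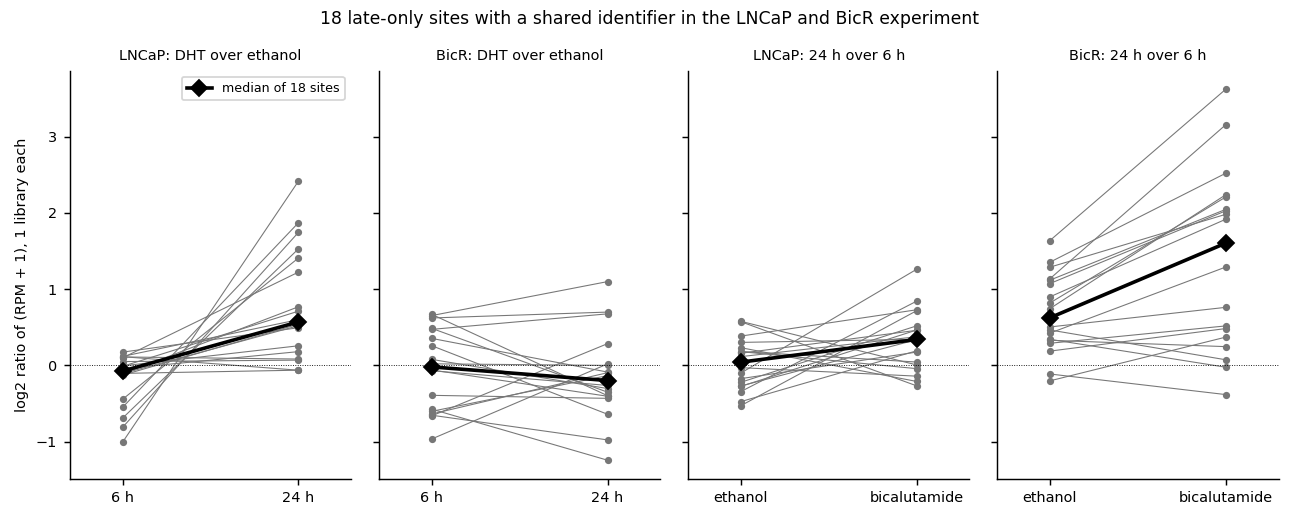
Grey lines give the log2 ratios of RPM + 1 (1 library over 1 library) at the 18 shared sites and black diamonds their medians: DHT over ethanol at 6 h and 24 h in each line, then 24 h over 6 h with ethanol and with bicalutamide in each line. The median DHT ratio goes from -0.07 to 0.57 in LNCaP and from -0.02 to -0.20 in BicR, while the 24 h over 6 h ratio without DHT is 0.04 and 0.34 in LNCaP and 0.63 and 1.60 in BicR.

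None of the 18 sites was called for bicalutamide against ethanol in either line in edgeR, where 0.00752% of all sites in LNCaP and 0.196% in BicR were. The medians were 0.04 and 0.13, and neither kept its direction when single libraries were left out, with a range of -0.11 to 0.21 in LNCaP and of -0.30 (3 of 18 above 0, without the bicalutamide library of 24 h) to 0.40 (16 above 0, without that of 6 h) in BicR. Here 0 of the 18 had an unadjusted p under 0.05 in either line, against 1.93% and 6.05% of all sites. Adding bicalutamide to DHT called 0 of 18 in LNCaP, where none of all sites was called (percent called 0), and 0 of 18 in BicR, where 0.143% were. DESeq2 called none of the 18 in these 4 comparisons. In LNCaP the median was 0.02 with 10 of 18 above 0 and 0 at an unadjusted p under 0.05 (1.84% of all sites), against -0.23 for the earlier-rising sites with 16 of 110 above 0, and it was -0.20 without the DHT library of 6 h and 0.35 without that of 24 h. At 24 h in LNCaP the median log2 ratio to ethanol was 0.47 with DHT and bicalutamide and 0.57 with DHT alone. Site 1 had 926 RPM with both and 1230 with DHT alone, and site 24 had 33.3 and 46.1. In BicR the median was 0.69, with 15 of 18 above 0 and 4 at an unadjusted p under 0.05 (8.81% of all sites), and it was 0.28 without the 6 h library that stood apart. Leaving out the library of DHT with bicalutamide at 24 h instead gave 2 calls, sites 6 and 26, where 916 of the 13294 sites were called against 19 with that library. None of the 18 sites was called between BicR and LNCaP with ethanol by edgeR or DESeq2, where edgeR called 11% of all sites. The median was -0.28 (-0.06 without the LNCaP ethanol library of 6 h), and 5 of 18 had an unadjusted p under 0.05, against 27.6% of all. Without the BicR library that stood apart, site 26 and site 16, at chr6:33378706-33378966 on the plus strand, were called lower in BicR, where 2038 of all sites were called, and without the LNCaP ethanol library of 6 h site 15 was called higher, where 365 were, against 1462 with all libraries.

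A further 10 of the 48 sites held exactly 1 position of the second table inside them under another identifier, a match added after the data were seen. Such a position may hold only a part of the cluster's tags, and the same may be true of the 18 shared sites. In LNCaP their median log2 ratio of DHT to ethanol was -0.25 at 6 h and 0.88 at 24 h, and in BicR 0.04 and 0.35. Their median change from 6 h to 24 h without DHT in BicR was 0.71, with 6 of 10 above 0. Of these 10, 2 were called higher there, inside site 19 at chr1:44497003-44497299 (1.79, SE 0.36, adjusted p = 0.0341) and inside site 18 at chr6:43596953-43597027 (1.14, SE 0.26, adjusted p = 0.0459), both on the minus strand. Of all sites 1.36% were called higher there, and the limit given above for the bicalutamide libraries applies to these 2 calls as well. With DHT in BicR 1 was called higher, inside site 7 (0.58, SE 0.14, adjusted p = 0.0386), where 2.21% of all sites were.

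Some of the 48 sites lay beside a start site that was stronger at 0 h. Within 5000 bp on the same strand, 20 of the 48 had another cluster (41.7%, against 30.0% of all clusters), 17 had one on the opposite strand (35.4% against 36.3%) and 25 had neither (52.1% against 46.9%). At 15 sites a same-strand neighbour was higher at 0 h. In 13 of these 15 the neighbour changed less than 4 times by 48 h, and the neighbours' median log2 ratio was 0.94 (range -0.21 to 4.29). Over all 19534 clusters the median was -0.07. Only 291 of them rose at least 4 times at both late times with a 48 h mean of at least 10. Of all 35 same-strand neighbours within 5000 bp, 31 were higher at 48 h than at 0 h, against 8651 of all 19534 clusters. The median log2 ratio of the 35 was 1.42. Of the 35, 8 were earlier-rising and 2 were themselves late-only, sites 1 and 8, each the neighbour of the other. The definitions of these sets fixed their rise, so the counts are a description. The rise of the site itself was part of the choice of sites, so the difference within a pair is a description.

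Site 9 lay 391 bp downstream of a cluster at chr12:57623404-57623579, distances being counted between the lower coordinates of the clusters. The neighbour had a mean of 431 RPM ± 14.6 (SD, n = 2) at 0 h and 544 ± 141 at 48 h, while site 9 had 15.0 and 29.2 RPM at 0 h and 183 and 123 at 48 h. The neighbour's change was smaller than its replicate spread, and the share of site 9 in the pair went from 4.88% to 22.0%. Site 9 also had 2 earlier-rising neighbours. The cluster at chr12:57624032-57624211, 237 bp downstream on the same strand, had a mean of 2.98 RPM at 0 h, 16.3 at 12 h and 92.9 ± 104 at 48 h. The cluster at chr12:57623719-57623860 overlapped site 9 on the opposite strand and had 2.15 RPM at 0 h and 27.8 ± 25.6 at 48 h. Site 4 lay 1786 bp upstream of a cluster at chr19:54372870-54373091, which had 362 ± 99.7 RPM at 0 h and 313 ± 119 at 48 h. There the share of the late-only site went from 4.89% to 58.1%, so that it overtook its neighbour. Site 24 lay 825 bp downstream of a cluster at chr14:100842580-100842715, which had 77.4 ± 14.8 RPM at 0 h and 150 ± 28.0 at 48 h, and the share of site 24 went from 5.41% to 16.8%. Site 22, at chr10:102107052-102107250, began 136 bp from its neighbour at chr10:102106916-102107026, which had 117 ± 46.1 and 218 ± 22.6 RPM, and its share went from 4.77% to 13.3%. In all, 3 of the 15 sites were above their neighbour at 48 h, the other 2 being site 38 and site 30, at chr7:150688135-150688224 on the plus strand.

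In 2 pairs the neighbour was also at least 4 times higher at 48 h than at 0 h. Sites 1 and 8 were both late-only, and site 8 held 1.10% of the pair at 0 h and 1.02% at 48 h. Site 35, at chr1:55349915-55350053 on the minus strand, had no tag at 0 h and 18.3 and 9.95 RPM at 48 h, beside an earlier-rising cluster at chr1:55352527-55352994 with a mean of 215 ± 83.0 RPM at 0 h, 648 at 12 h and 1892 ± 209 at 48 h. Its share of the pair at 48 h was 0.742%.

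On the opposite strand, 27 neighbours within 5000 bp had a median log2 ratio of 0.66 at 48 h. Of these, 19 were higher than at 0 h, against 8651 of all 19534 clusters. The cluster at chr19:18499250-18499858 is counted for both site 1 and site 8. The 27 also hold 2 late-only sites, whose rise was part of the choice of sites. These were sites 7 and 46, the latter at chr8:6566556-6566632 on the minus strand, which lay 478 bp apart. Site 46 had no tag at 0 h and 15.3 and 6.18 RPM at 48 h. Site 6 overlapped a plus-strand cluster at chr15:55700550-55700919, which had 12.4 ± 0.764 RPM at 0 h, 27.3 at 18 h and 54.6 ± 4.95 at 48 h. Its log2 ratio to 0 h was 2.05 at 48 h and 1.81 at 72 h, so it was outside the set by its 72 h level.

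**Figure D5:**
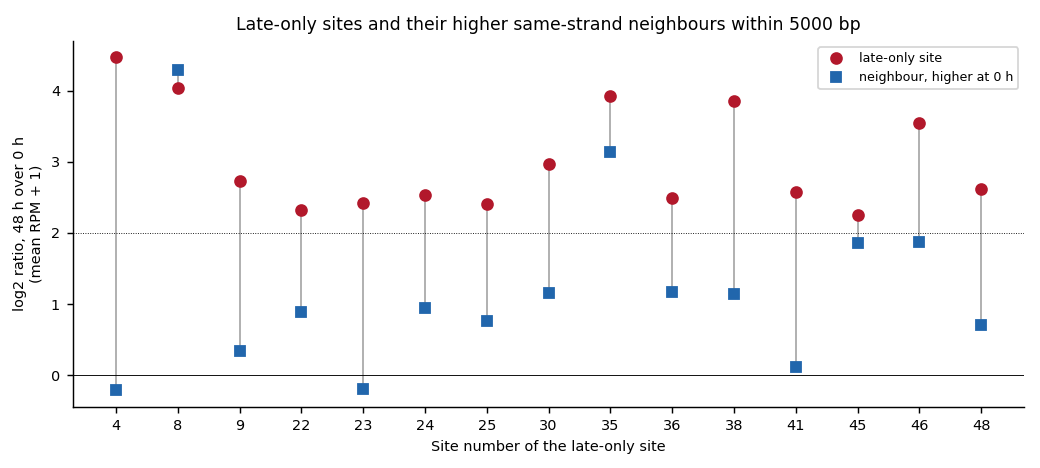
For the 15 late-only sites with a higher same-strand neighbour at 0 h, circles give the log2 ratio of 48 h to 0 h of the site and squares that of the neighbour; the dotted line marks the 4 times limit that chose the sites. In 13 of the 15 pairs the neighbour lies below that line, and at sites 4 and 23 the neighbour lies below 0. The median over all clusters was -0.07.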

How the data were processed

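The authors deposited raw tag counts per site (whole numbers, no normalization) and normalized values (RPM), which are the tag counts scaled to a library total larger than the table's sum, per the file headers and the values. The build was hg19, per the submitters' processing notes. The aligner, the cluster caller and the filters are not given in the sources used here. The R1881 table lists clusters, and the second table gives a single position per site. The sites of the second table held 75.6% to 86.1% of the implied library totals, and which tags around a position were counted was not checked.

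The sites were chosen on the deposited RPM means, and the members and lists were chosen with earlier results of these data known. The deposited counts were tested with edgeR 4.0.16 in R 4.3.3 (TMM, quasi-likelihood F test, Benjamini-Hochberg over all sites, threshold 0.05), with DESeq2 1.42.0 as an alternative. The low-count filter (filterByExpr, minimum count 10) left 15999 time-course sites, all 48 members among them. The fit has a coefficient per time. The second table's fits have a coefficient per line and treatment and a 24 h term per line. For comparisons of the times they also have a term for androgen (DHT with or without bicalutamide) at 24 h. They leave out the 0 h libraries and estimate error from the 6 h and 24 h libraries. SE is the size of the log2 fold change over the square root of F. The functions were tested on simulated data. Alternatives changed normalization, filter, terms and libraries, and leave-one-out fits dropped each library.

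Sites named in full are the 8 highest at 48 h, the sites with the smallest p for 18 h against 6 h, the called sites with the largest changes elsewhere (6 each way for DHT, 3 for others) and those nearest each limit. The rule asked for called sites at 18 h against 6 h. As none was called there, those named, the neighbour pairs and the other sites printed were chosen after their values were seen.

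Libraries with the same number deviated together from the mean of their time, with r of 0.15 to 0.586 (median 0.342) in 21 of 21 pairs of times. Replicate 1 was also the shallower at every time, so a pairing of the libraries cannot be told apart from depth. The labels do not say what the replicate numbers stand for. Gene lists were not used here, since the files pair no site with a gene.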

Additional observations from a re-analysis of the deposited data

How the results depend on the processing

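When the replicate number entered as a block, 0 sites were called for 18 h against 6 h, as without it, and the block changed no call. The count of late-only sites was 48. With a pseudocount of 5 it was 25, of which only 13 were among the 48, and with 0.5 it was 48, of which 40 were. It was 108 with a late limit of 3 times, 15 with 6 times and 28 with a minimum of 20 RPM. From replicate 2 alone it was 51 and from replicate 1 alone 68, sharing 20 and 21 of the 48. Called members for DHT in BicR numbered 0 with no 24 h term, 0 to 1 when an ethanol or DHT library was left out, and 3 without the library that stands apart. The comparison of BicR with LNCaP gave 2 without the library that stands apart and 0 to 1 when an ethanol library was left out. For 24 h against 6 h without DHT in BicR it was 0 to 7 when an ethanol or bicalutamide library was left out and 10 without the library that stands apart, and for its difference between lines 0 to 2, with 1 in DESeq2. DHT with bicalutamide against DHT in BicR gave 0 to 2, and the DHT effect at 24 h minus at 6 h in BicR and its difference between lines 0 to 1 each. All other comparisons of members gave 0 when a library was left out. The causes were not tested. Of the counts under alternatives, 135 lay within 1.5 times of the main count and 23 did not. Most of the 135 are 0 against 0, which says nothing about stability. Depth limits the 6 h and 18 h values most, since replicate 1 had 0 tags at 19 and 16 of the 48 sites. It also limits the times that chose the sites. At 3 h and at 12 h, replicate 1 had 0 tags at 15 sites. There 3 tags equal 6.25 and 7.97 RPM, above the sites' median of 4.55 RPM at 0 h. At low-level sites the limits at 3 h and 12 h thus rest on few tags in replicate 1.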
